A study of Mus musculus with 3 samples.

Results

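The genes described are 9 apolipoproteins of the mouse ovary: Apof, Apoe, Apoc1, Apoc2, Apod, Apoa1, Apoa4, Apob and Apom. They were found as all array probes, other than controls, that carry one of these gene names. This gave 13 probes, 1 for each gene except Apob with 5, out of 41174 probes and 27975 gene names on the array. Of the 9 genes 7 had a signal well above background and were tested among 17849 genes, while Apob and Apod did not. The members were chosen by their measured ratios of conditional knockout over control, Apof for its low ratio and Apoe for its uneven one. Those ratios are therefore given as a description.

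Whole ovaries of 10-week-old C57Bl/6J females were compared 3.5 days post copulation, with tissue taken at ZT12, when the lights go off. Both genotypes carried floxed alleles of the clock gene Bmal1 (Bmal1fxfx), and the knockout females also carried Cre recombinase under the sf-1 promoter (Bmal1fxfxCresf-1; the labels of arrays 2 and 3 read Cresf-2 and Cresf-3). SF-1 marks steroid-producing cells, so Bmal1 is expected to stay intact in the other cells of the ovary. On each of 3 arrays RNA pooled from 3 knockout females (cKO, in cy3) was hybridised with RNA pooled from 3 control females (in Cy5), 9 females of each genotype in all. Dyes were not swapped, so dye and genotype cannot be told apart for any single probe.

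Apolipoproteins are the protein parts of lipoproteins, the particles that carry cholesterol and triglycerides in blood and tissue fluid. Exchangeable apolipoproteins such as apoA-I, apoE and the apoC proteins move between particles, bind receptors and steer lipid enzymes, while apoB is built into its particle for good. Steroid-producing ovarian cells draw much of the cholesterol for progesterone from lipoproteins, and ovarian macrophages and other cells also make apoE.

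Each member's ratio rests on the DNA oligonucleotides spotted for it, and for all but Apob that is a single sequence. The probes of the members whose values are described at length are shown here as the deposited files give them, 5′ to 3′. Those of Apoe and Apoa1 are whole, at 60 bases, and of the others the first 30 bases are shown; no part is in capitals.
Apof: gcctttattaaagaactatggtgtcttggc
Apoe: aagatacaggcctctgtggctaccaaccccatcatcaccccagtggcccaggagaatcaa
Apoc1: gggccacctcgaagcatcaaggacatccac
Apoc2: gggaaaggaaaacctgatgacagacaccgc
Apoa1: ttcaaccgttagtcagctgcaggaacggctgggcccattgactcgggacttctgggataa
The Apof probe has a GC content of 35%, at the lower quartile of all probes (35%), while the Apoe, Apoc1, Apoc2 and Apoa1 probes all have 55%, above the upper quartile of 45%. The probes of Apoe and Apoa1 were printed in 10 spots on each array and all others in 1.

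Ratios, on the log2 scale, set cKO over control after background correction and loess normalisation and are given as mean ± SD over the 3 arrays (n = 3), and levels are normalised log2 intensities of one channel. The median spot signal was 1.8 to 2.8 times its local background over the arrays and channels, and 62.9% to 69.1% of spots were well above background. Precision is limited by the number of arrays. The labels do not say whether a pool's 3 females share a litter or cage. The p-values measure the spread of the 3 ratios, each of 1 cKO pool over 1 control pool. This spread was moderated in limma by that of all genes. The targeted gene, listed as Arntl, gave log2 ratios of 0.27, 0.13 and -0.24; as its probe need not fall in the deleted exons, this is no check of the labels. Ovarian markers, among them the oocyte genes Gdf9 and Zp3, Foxl2 of granulosa cells and the steroidogenic Cyp11a1 and Hsd3b1, were well above background for 10 of 10 genes. Over all genes Pearson's r between the log2 ratios of 2 arrays was 0.601 for arrays 1 and 2, 0.213 for arrays 1 and 3 and 0.00875 for arrays 2 and 3, genes not being independent replicates. Arrays 2 and 3 shared a slide and a scan, and array 1 came from a different one.

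Apof was far lower in the cKO ovaries on every array. Its product, apolipoprotein F, is a secreted protein known as an inhibitor of lipid transfer between lipoproteins. The mean spot signal was 188, 191 and 193 in the 3 cKO pools against 1964, 1269 and 1052 in the control pools on arrays 1 to 3. On the normalised scale the cKO levels were 7.47, 7.78 and 7.67 and the control levels 10.7, 10.8 and 10.2. The 3 cKO pools lay close together, all were below all 3 control pools, and both channels were well above background on every array. The log2 ratios were -3.18, -3.0 and -2.53, a mean of -2.90 ± 0.34, or 7.47-fold lower. From the scanner's own processed signals the ratios were -3.48, -3.34 and -2.70, or 9.02-fold lower.

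**Figure D1:**
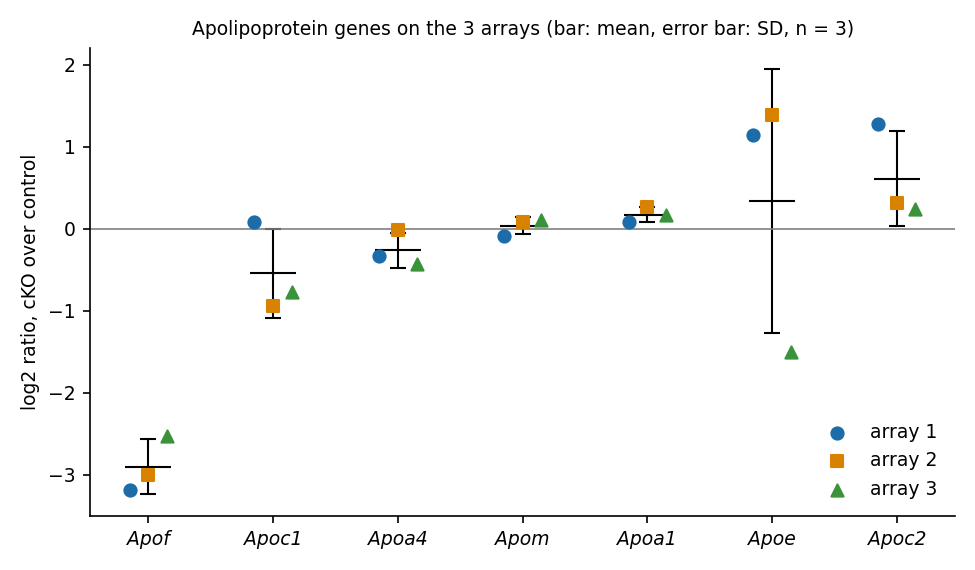
Log2 ratio of cKO over control (vertical axis) for the 7 tested apolipoprotein genes (horizontal axis), one symbol per array, with the mean as a bar and the SD as an error bar (n = 3). The Apof ratios lie between -3.18 and -2.53, while those of Apoe run from -1.51 to 1.39.

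Among the 17849 genes tested Apof had the 4th lowest mean ratio. In limma's test with Benjamini-Hochberg adjustment over all genes it was the 1 member of 7 that was called (adjusted p = 0.039); 0.179% of all genes were called, and nothing is read from this count, since Apof was picked for this contrast. The call lies near the threshold: the adjusted p from limma was 0.0619 without array 1, 0.0527 without array 3, 0.0568 after median centring, 0.0982 after scaling between arrays and 0.167 with dim probes included. A fit with the slide as a block gave a mean of -2.97, and the shared slide of arrays 2 and 3 alone gave -2.76. Of the ovary's own markers 8 of 10 had a mean below 0, against 8927 of all 17849 genes. Only 1 was called lower, beside 0.106% of all genes: Star, the cholesterol carrier of steroid-producing cells, at -4.09 ± 0.13 (limma, adjusted p = 0.0195). The other 9 markers, among them Lhcgr at -0.86 ± 0.07 and Cyp11a1 at -0.30 ± 1.11, were not called. Summed over the 10 markers, Star included, the level was 107000 to 135000 in cKO and 159000 to 225000 in control pools. None was at 0, no sum was made without Star, and the part of these markers in the Apof ratio was not tested. In RNA of whole ovaries, fewer cells that express a gene and less of its RNA per cell cannot be told apart.

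The genes whose ratios were most like those of Apof over the 3 arrays were Npb, which encodes neuropeptide B, Cldn18, a tight junction protein, Etos1, the cystatin Cst8 and Ms4a10. Their root mean square difference from the Apof ratios was 0.21, 0.26, 0.35, 0.49 and 0.59 log2 units. The Npb ratios, nearest to Apof, were -3.0, -2.68 and -2.50, and those of Cldn18 were -3.21, -2.92 and -2.97.

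The genes next to Apof on its chromosome, in the order of the RefSeq table, did not show its low ratio. Timeless, a replication fork protein, was at -0.34 ± 0.47 (adjusted p = 0.598), and Apon, a related apolipoprotein gene beside Apof, at -0.11 ± 0.15 (adjusted p = 0.803). On the other side Stat2, a transcription factor of the interferon response, was at -0.22 ± 0.29 and Pan2, a subunit of an mRNA deadenylase, at 0.30 ± 0.45. Mip and Il23a, the other two of the 6 nearest, had no probe that was well above background. None of the 4 neighbours with a ratio was called by limma, and the difference between Apof and its neighbours was not tested.

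Apoe varied between arrays by more than its mean difference between genotypes. Apolipoprotein E is the ligand through which remnant particles bind receptors of the LDL receptor family. Its levels in the cKO pools were 15.8, 15.5 and 13.8 and in the control pools 14.6, 14.1 and 15.3 on arrays 1 to 3. The cKO pool was higher on arrays 1 and 2 and lower on array 3, where the highest control pool met the lowest cKO pool. The log2 ratios of 1.14, 1.39 and -1.51 gave a mean of 0.34 ± 1.61 (limma, adjusted p = 0.883), so the ranges of the genotypes overlapped. A slide block moved the mean to 0.54, and arrays 2 and 3 alone, which share a slide, gave -0.06.

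**Figure D2:**
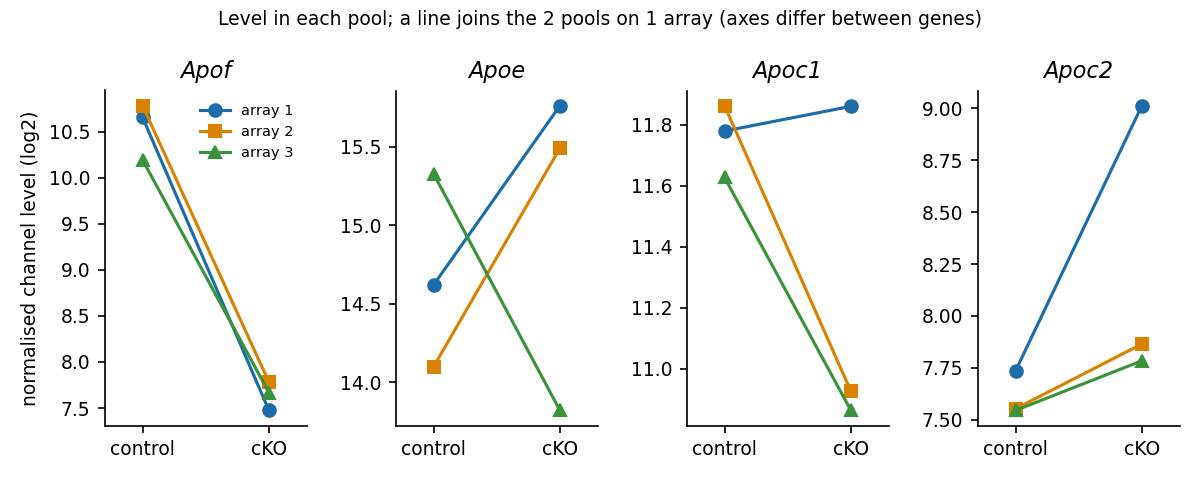
Normalised log2 level (vertical axis, its own range for each gene) of Apof, Apoe, Apoc1 and Apoc2 in the control and cKO pools, a line joining the pools of one array. The lines of Apof all fall, and those of Apoe rise on arrays 1 and 2 and fall on array 3.

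The uneven Apoe ratio was seen in every spot of its probe. The 10 spots lay between 0.57 and 1.46 on array 1, between 1.04 and 1.57 on array 2 and between -1.96 and -1.15 on array 3. On each array the first spot in array order was the lowest and the last the highest. The spots of one array had SDs of 0.27, 0.17 and 0.23, against 1.61 between the arrays. In the scanner's signals, which had been spatially detrended, the SDs among spots were 0.06, 0.03 and 0.05 and the mean ratios 1.18, 1.38 and -1.45. Apoe was also among the brightest probes: of the 26418 kept probes 10, 43 and 539 were brighter than it in the cKO pools of arrays 1 to 3, and 234, 403 and 69 in the control pools. Its brightest spot read 60413, under the scanner's saturation value of 65206, and 0 of its spots held saturated pixels.

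**Figure D3:**
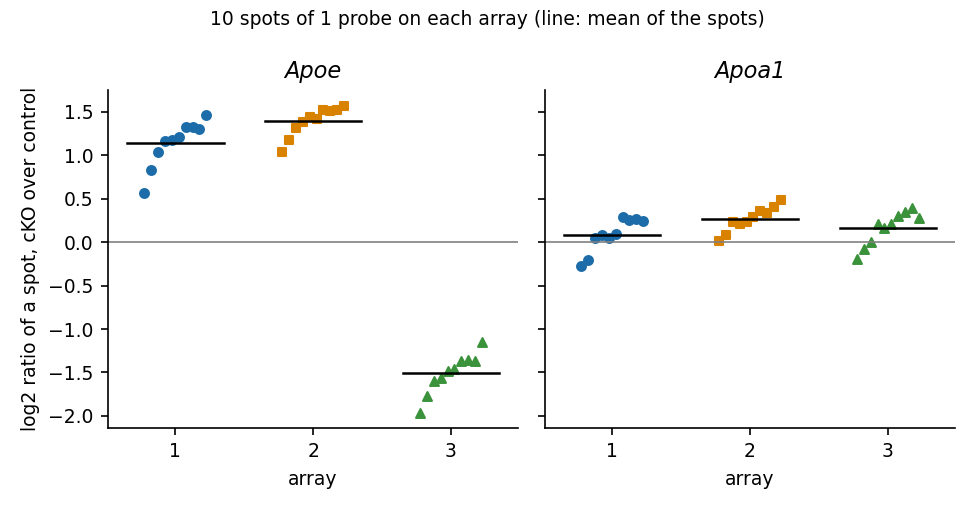
Log2 ratio of cKO over control (vertical axis) in each of the 10 spots of the Apoe and Apoa1 probes on arrays 1 to 3 (horizontal axis), with the mean of the spots as a line. All Apoe spots lie above 0 on arrays 1 and 2 and below 0 on array 3, while Apoa1 stays between -0.27 and 0.49.

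The genes with ratios most like those of Apoe were Csrp1, a LIM domain protein of smooth muscle, Psap, the precursor of lysosomal saposins, Cd74, the MHC class II invariant chain, C1qa, a complement subunit made by macrophages, and Cma1, a mast cell chymase. Their root mean square difference was 0.17, 0.23, 0.26, 0.33 and 0.33 log2 units over the 3 arrays. The C1qa ratios were 1.38, 1.45 and -1.0 and those of Cd74 1.03, 1.12 and -1.86.

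The median of macrophage markers had the sign of the Apoe ratio on each array. All 13 of 13 markers were well above background, and their median ratio was 0.69, 0.58 and -0.63 on arrays 1 to 3. Higher on arrays 1 and 2 and lower on array 3 were 8 of the 13, or 61.5%, against 17.3% of all genes and, among the 7 tested apolipoproteins, Apoe alone. Summed over the markers, the level was 74900, 47800 and 32900 in the cKO pools and 20600, 23000 and 31700 in the control pools. The genotypes were nearest on array 3, but the sum was higher in cKO there too. On that array the sum thus differed in sign from the marker median and from Apoe. Stromal markers (7 of 7 measured) had medians of 0.67, 1.12 and 0.04, with summed levels of 39600 to 61800 in cKO and 34800 to 39700 in control pools. Markers of oviduct and surface epithelium (8 of 8) had medians of 1.11, -0.55 and -0.28, with sums of 26300 to 60900 and 29600 to 48300. The part of these cells in the Apoe ratio was not tested.

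**Figure D4:**
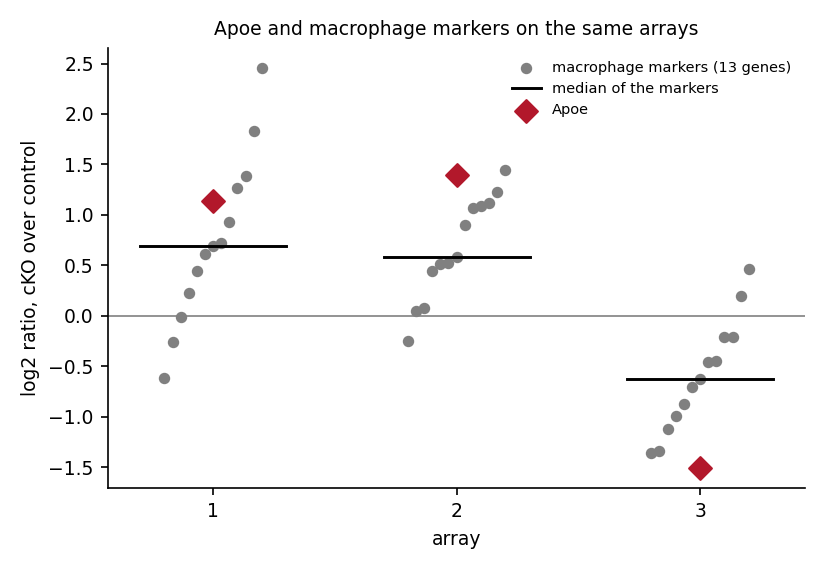
Log2 ratios of cKO over control (vertical axis) of 13 macrophage markers (grey points, median as a line) and of Apoe (diamond) on arrays 1 to 3 (horizontal axis). The marker medians of 0.69, 0.58 and -0.63 have the sign of the Apoe ratio on each array.

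Apoc1 and Apoc2 lie in one gene cluster with Apoe and Apoc4, and their mean ratios had opposite signs. Apolipoprotein C-I slows the uptake of lipoproteins by receptors and acts on lipid enzymes. Its levels were 11.9, 10.9 and 10.9 in the cKO pools and 11.8, 11.9 and 11.6 in the control pools. The control pools varied little and the cKO pool of array 1 stood above the other two, so the ranges overlapped. The log2 ratios were 0.08, -0.94 and -0.77, a mean of -0.54 ± 0.54 (limma, adjusted p = 0.453). The scanner's signals gave 0.49, -0.66 and -0.37, a mean of -0.18. The Apoc1 mean was -0.39 with a slide block and -0.85 on the shared slide.

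Apolipoprotein C-II is the activator that lipoprotein lipase needs. Apoc2 levels were 9.01, 7.87 and 7.78 in the cKO pools and 7.74, 7.55 and 7.55 in the control pools. Every cKO pool lay above every control pool, but the margin between the lowest cKO and the highest control pool was small, and array 1 stood apart. The log2 ratios of 1.28, 0.31 and 0.24 gave a mean of 0.61 ± 0.58, or 1.53-fold (limma, adjusted p = 0.429). On the shared slide the mean was 0.28, and with a slide block 0.78. Apof and Apoc2 were thus the 2 of 7 tested members whose pools did not overlap between genotypes, Apof being lower and Apoc2 higher. This held for 19.8% of all genes, and with cKO the lower for 9.84%; nothing is read from these counts.

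The rest of the cluster and its neighbours gave ratios on both sides of 0. Apoc4 was at -0.03 ± 0.16. Tomm40, a mitochondrial import pore subunit next to Apoe, gave -0.10, 0.24 and -1.07, and Nectin2 and Bcam, adhesion molecules beyond it, had means of 0.40 ± 0.64 and 0.53 ± 1.29. Beyond Apoc2, Clptm1 was at -0.20 ± 0.67, the NF-kappa-B subunit Relb at -0.20 ± 0.32 and Clasrp at 0.17 ± 0.76. None of these 7 genes was called by limma (adjusted p 0.631 to 0.965).

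Apoa1 and Apoa4 had small ratios, Apoa1 above and Apoa4 below 0. Apolipoprotein A-I is the main protein of high density lipoprotein and is made chiefly by liver and intestine. Apoa1 levels were 8.73, 8.97 and 9.21 in cKO and 8.65, 8.71 and 9.04 in control pools, so the genotypes overlapped. The log2 ratios of 0.09, 0.27 and 0.17 gave a mean of 0.17 ± 0.09 (limma, adjusted p = 0.655). The SD among its 10 spots was 0.20, 0.14 and 0.19 on arrays 1 to 3, larger than that between the arrays. From the first to the last spot in array order the ratio went from -0.27 to 0.24, 0.02 to 0.49 and -0.19 to 0.28. The SD among spots was 0.04, 0.06 and 0.05 in the scanner's signals, which had been spatially detrended. Loess left this trend in place, and its size in probes of 1 spot, such as that of Apof, was not tested. In the scanner's signals the ratio of array 1 was -0.04, so the shared sign does not hold there, and after median centring in place of loess the mean was 0.40 (limma, adjusted p = 0.284).

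Apolipoprotein A-IV is an intestinal apolipoprotein of chylomicrons. Apoa4 gave levels of 8.88, 9.18 and 9.28 in cKO and 9.21, 9.20 and 9.72 in control pools, overlapping between genotypes. The log2 ratios were -0.33, -0.02 and -0.44, a mean of -0.26 ± 0.22 (limma, adjusted p = 0.549), and the mean was -0.03 after median centring in place of loess. Markers of hepatocytes, cells that make many apolipoproteins, were dim: Ttr and Fga had no probe well above background, and the 6 of 9 that passed summed to 724 to 831 in cKO and 743 to 979 in control pools.

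Apom, a lipocalin that carries sphingosine 1-phosphate on high density lipoprotein, had a dim probe. Its signal was 1.42, 1.70 and 2.28 times background in cKO and 1.48, 1.28 and 1.85 times in control pools. The log2 ratios of -0.08, 0.09 and 0.11 gave a mean of 0.04 ± 0.10 (limma, adjusted p = 0.948). The scanner's signals, to which no offset was added, gave -0.48, 0.47 and 0.31.

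Apod and Apob were not well above background in either channel on any array, so no fold is given. Apolipoprotein D is a lipocalin of many peripheral tissues, and its signal was 1.11 to 1.29 times background in cKO and 0.945 to 1.18 times in control pools. Apolipoprotein B is the structural protein of very low and low density lipoproteins. Its 5 probes read 1.02 to 1.22 times background in cKO and 0.98 to 1.19 times in control pools. For one of them the scanner's table lists a log2 ratio of -2.41 on array 2, at signals of 1.13 and 1.15 times background.

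The other genes that handle lipoproteins gave no call. Of 64 genes in 4 lists 55 were tested, and 0 were called by limma after adjustment over all genes (smallest adjusted p = 0.141). At an unadjusted p under 0.05 there were 14, of which 11 were higher and 3 lower, or 25.5% against 12.3% of all genes. That count was 7 without array 1, 9 without array 2, 19 without array 3 and 8 with a slide block. The count over all 17849 genes moved as well, from 2203 to 770, 1386, 4782 and 1156 in the same order. Median centring in place of loess moved the median of all genes by 0.12, and the lists moved with it. The lists were drawn up with earlier results of these data known.

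Lipid transfer and lipase genes lay on the higher side. All 13 tested had a mean above 0, against 8922 of 17849 genes, but only 11 did with the scanner's signals, 12 after scaling between arrays and 10 on the shared slide of arrays 2 and 3. Without array 2 it was 10 and without array 3 it was 11. The list's median was 0.18, beside 0 for all genes, and it was 0.12 without array 1, 0.22 without array 2, 0.41 without array 3, 0.36 after median centring and 0.09 over 17 genes with dim probes included. The largest ratio was that of Lpl, lipoprotein lipase, the enzyme that apolipoprotein C-II activates: 2.16, 1.32 and 1.36, a mean of 1.61 ± 0.47 (adjusted p = 0.141), with a second probe at 1.44. The lipid exporters Abca7 (1.32 ± 0.39) and Abcg1 (0.86 ± 0.44) and the lipase inhibitor Angptl4 (0.44 ± 0.12) followed. With the scanner's signals Lpl was at 1.72, Abca7 at 1.09, Abcg1 at 0.81 and Angptl4 at only 0.155. Markers of adipocytes, cells rich in Lpl, were measured for 6 of 7 genes (Lep was dim), with median ratios of 0.51, -0.25 and -0.36 and summed levels of 7340 to 18500 in cKO and 8210 to 26300 in control pools; their part in the Lpl ratio was not tested. Pltp, the phospholipid transfer protein, named after its value was seen, gave 0.63, 0.72 and -1.26, high and low on the same arrays as Apoe. In this list 3 of 13 genes had these signs, or 23.1%, against 17.3% of all genes, and nothing is read from them.

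Lipoprotein receptors and their regulators were evenly split, 8 of 16 above 0 and 8 below, with a median of 0.01. Lrp8, an apoE receptor, was at 0.86 ± 0.23 (adjusted p = 0.208), with other probes at 0.57 and 0.77. Scarb1, the receptor for high density lipoprotein, gave -0.14, -0.60 and -1.65. Lrp2 (megalin) was at 0.46 ± 0.72, with a second probe at 0.07, and Olr1, a receptor for oxidised particles, at 0.42 ± 0.18 and at 2.44 with the scanner's signals.

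Among 13 tested genes of other apolipoproteins the median was -0.03, with 6 above 0 and 7 below; after median centring 9 were above 0, and with the scanner's signals 3. Apol6 was at -0.94 ± 0.18 (adjusted p = 0.169) and Apol7a at 0.69 ± 0.23 (adjusted p = 0.252), the latter at 2.89 with the scanner's signals. Apoo and Apool, mitochondrial inner membrane proteins named as apolipoproteins, were at -0.51 ± 0.75 and -0.32 ± 0.79, with other probes of Apool at -0.21, 0.07 and -0.05. In the probe read for it, each was lower on arrays 1 and 2 and higher on array 3, the reverse of Apoe. The share of all genes with these signs was not counted, and nothing is read from them. Nuclear receptors and factors that act on apolipoprotein genes had a median of -0.06 over 13 genes. The largest ratios were those of Nr1d1, which encodes REV-ERB alpha, at -1.36 ± 0.47 with other probes at -0.19 and -0.23, and Rora at 1.11 ± 0.30 with others at 1.35 and 0.32. Nr5a1, the gene of SF-1, was at 0.51 ± 0.67 with a second probe at 0.45, and Rxra at 0.49 ± 0.20 with a second at 0.07; none of these was called.

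**Figure D5:**
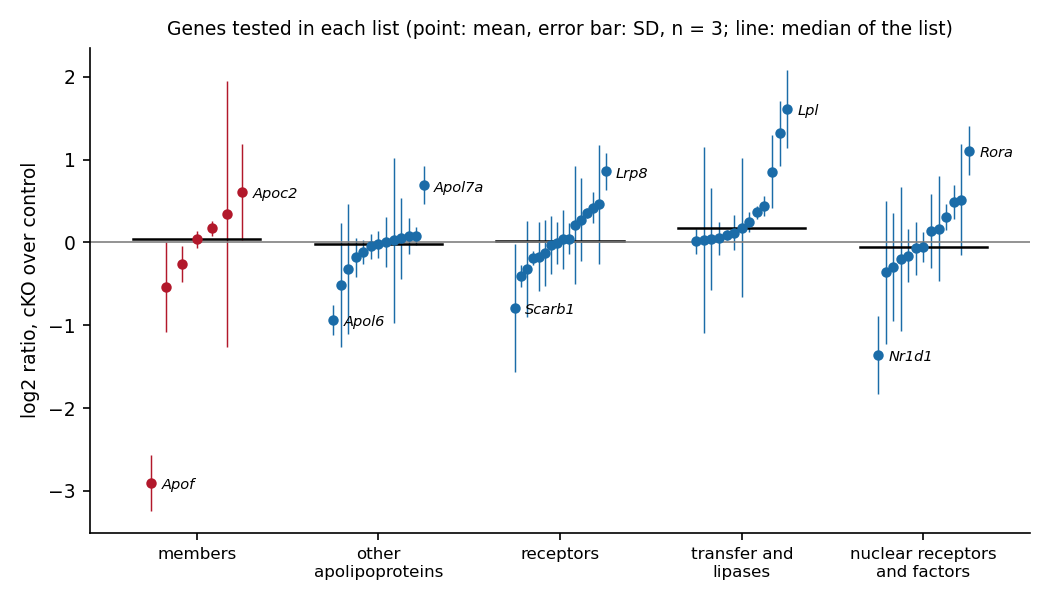
Mean log2 ratio of cKO over control (vertical axis; error bars are SD, n = 3) of the genes tested in each list (horizontal axis), with the median of the list as a line. Apof at -2.90 lies below every gene of the other lists, and Lpl at 1.61 is the highest gene shown.

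Promoters of 7 of the 9 members, 9 in all because Apoe has 3 start sites, were found in the RefSeq table of GRCm38.p6. Each covers 250 bases before to 50 bases after a start site; those of Apof and Apoc1 were not found. On either strand 0 of the 9 held the E-box CACGTG, present in 7.15% of all 32851 promoters, or the SF-1 site AAGGTCA, present in 4.72%. Nor did any hold the D-boxes TTATGCAA (0.743% of all promoters) and TTATGTAA (0.938%) or the direct repeat of AGGTCA with 4 bases between (0.0152%). These letters are absent from these windows only.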

How the data were processed

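The members and the gene lists were chosen with earlier results of these data known. The deposited files hold, for each spot, the raw mean and local background intensity in both dyes, written by Agilent Feature Extraction 9.1.3.1. They also hold a processed intensity, which per the file headers that software had corrected for background, spatial trend and dye. Their deposited log10 ratio is Cy5 over cy3 processed signal, thus control over cKO; its sign was turned and it was scaled to log2. The series' value table, deposited as log10 ratios, is identical to these values (median 0 on each array). The sources used here name no further step.

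Mean spot signals were corrected with the median local background by normexp (offset 50) and normalised by loess, control spots at weight 0, in limma 3.58.1 under R 4.3.3. Spots of one probe were averaged without the 13, 4 and 0 outlier spots of the 3 arrays. Probes with most spots well above background in one channel on all 3 arrays were kept, and the brightest kept probe stood for its gene. Channel levels were taken after quantile normalisation of the mean intensities between arrays. Spots were named through RefSeq (GRCm38.p6): 26788 by accession, 6252 by symbol and 1810 by synonym, and 8529 kept the file's name. A two-sided test of each gene's ratios against 0 used lmFit and eBayes of limma, adjusted by Benjamini-Hochberg over 17849 genes, and called at an adjusted p below 0.05. The fit was tested on simulated data with changes larger than that of any member, so ratios of the size described here were not tried. Named are all members, from each list of lipoprotein genes the 4 largest ratios, the 5 genes of most like pattern, and the 3 nearest coding genes on each side. Alternatives were the scanner's signals, median centring, scaling between arrays, no filter, the mean of a gene's probes, the slide as a block, one slide, and leaving out each array.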

Additional observations from a re-analysis of the deposited data

How the results depend on the processing

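Of the 17849 genes limma called 32, 13 higher and 19 lower. The scanner's signals gave 53, median centring and the slide of arrays 2 and 3 alone 1 each, and scaling between arrays and no filter on dim probes 0 each (2303 and 3181 at an unadjusted p under 0.05); leaving out an array gave 0 to 21. Of the members 1, Apof, was called, and 0 after median centring, scaling, no filter or within that slide, and 0 to 1 without an array; at an unadjusted p under 0.05 Apof was in every case below it. Its mean ran from -3.17 to -2.69 over the 10 alternatives, adjusted p 0.0174 to 0.167. The Apoe mean changed sign to -0.058 without array 1, which is also the value within that slide, and to -0.18 without array 2, and was 1.27 without array 3. The means of the other 5 tested members kept their sign under all 10 alternatives, none being called. No gene of the other lipoprotein lists was called under any alternative. The test of the ratios is itself paired, since it sets the pools of each array against each other. The 3 ratios form 1 group with nothing further to pair.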

Other observations

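On these arrays 187 kept probes were printed in 10 or more spots. Their median SD among spots was 0.22, 0.17 and 0.20 on arrays 1 to 3, and the median SD of their ratios between arrays was 0.29. Apoe, chosen for its uneven ratio, had the largest SD between arrays of all 187, at 1.61, and nothing is read from this rank. Apoe was followed by H2-Ab1, an MHC class II chain (1.41), Spp1, the secreted phosphoprotein osteopontin (1.39), the MHC class I gene H2-Q7 (1.21) and the smooth muscle actin Acta2 (1.19). Apoa1 stood at the other end, at 0.09, with 24 probes below it.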
